A study of Drosophila melanogaster with 16 samples.

Results

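The genes described here make and receive lipophorin, the lipoprotein of insect blood. They are the 5 rows of the count tables for apolpp, Apoltp, Mtp, LpR1 and LpR2, of 17489 genes listed. The rule that picks them uses names and functions and no measured value, but earlier results of these data were known when they were chosen. Lipophorin is built around the apolipophorin protein encoded by apolpp, which plays the part that apolipoprotein B plays in mammals. In Drosophila it is made mainly by the fat body, the tissue that combines the roles of liver and adipose tissue, and it carries diacylglycerol, sterols and other lipids between the gut, the fat body and the other organs. The microsomal triglyceride transfer protein (Mtp) loads lipid onto these particles inside the cell that makes them. The lipid transfer particle, built from Apoltp, moves lipid onto and off lipophorin and works at the gut and at the cell surface. The lipophorin receptors LpR1 and LpR2 belong to the low-density lipoprotein (LDL) receptor family and act in the tissues that take the lipid up.

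RNA was sequenced from heads of adult male flies of the genotype Gr5a>UAS-Rpl3-3XFLAG, in which the driver of the sweet taste receptor gene Gr5a puts a FLAG tag on the ribosomes of taste cells in the proboscis. Flies went on their diet at day 5 of age, and each replicate pooled 300 heads. The 7-day groups were sampled at day 12, and no separate sampling age is given for SD3. The whole lysate gave the input, and ribosomes pulled down with the FLAG antibody gave the Gr5a fraction. CD7 stands for 7 days on the control diet with 5% sucrose (3 input and 3 Gr5a libraries), SD7 for 7 days on the sugar diet with 30% sucrose (2 and 2), and SD3 for 3 days on the sugar diet (2 Gr5a libraries). The 14-day groups, sampled at day 19 of age, were kept on the control diet throughout (CD>CD, 2 Gr5a libraries) or moved from the sugar to the control diet after 7 days (SD>CD, 2 Gr5a libraries). All groups carry the same transgenes, so there is no library without the driver or the tag.

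The 16 libraries held between 22901154 and 55290069 gene counts. The pull-down raised the taste cell genes. The 4 genes Gr5a, Gr64f, Gr64a and Ir56d summed to between 9.69 and 24.3 CPM (counts per 1000000 gene counts) in the Gr5a libraries. They summed to between 0.415 and 1.10 CPM in the inputs. Sums over marker genes are scaled by the gene count total alone. For the CPM of single genes the library totals are also adjusted by the TMM factors of edgeR. Genes of other head tissues stayed abundant in the Gr5a fraction, with photoreceptor genes at between 7459 and 17446 CPM in sum. 3 libraries go against a label or their group. The titles of both SD>CD libraries name them CD>CD, and they are grouped here by their condition label. CD>CD replicate 2 had 1.62 CPM of the storage protein gene Lsp2, near the 0.794 and 4.53 CPM of the SD7 libraries, while CD>CD replicate 1 had 684 CPM. Tests on CD>CD are therefore given with and without replicate 2, and some also without replicate 1. CD>CD replicate 1 had the lowest same-strand share, 93.6%, of the 15 libraries with counts for both strands. It also had the most multimapping reads (26%) and reads with no feature (14.1%) of the 13 libraries that list them. Neither fit is therefore taken as the cleaner one. The library numbers that the deposited count tables carry, which are not their accessions, form one run for the 7-day groups and a separate run for SD3 and the 14-day groups. What the numbers stand for is not given in the sources used here, so a difference between those runs cannot be told apart from SD3 against CD7 or CD>CD against CD7. The midgut marker genes summed to between 14.3 and 23.1 CPM in SD>CD and to between 863 and 2029 CPM in CD>CD, and their part in the values below was not tested.

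All 5 genes lie on assembled chromosomes of the BDGP6 (dm6) genome, are protein-coding and were well counted. apolpp (FBgn0087002) is on chromosome 4, on the forward strand from 1060969 to 1077273, with 11766 bp of exon. Apoltp (FBgn0032136) spans 9634179 to 9656026 on the forward strand of 2L, with 13330 bp of exon. Mtp (FBgn0266369) is the short gene of the set, with 2930 bp of exon on the reverse strand of 2L between 20919094 and 20922876. LpR2 (FBgn0051092, 3R, 25698727 to 25740465, 5510 bp of exon) and LpR1 (FBgn0066101, 3R, 25741348 to 25763105, 6638 bp of exon) are neighbours on the reverse strand, 882 bp apart. These paralogs resemble each other in sequence, and reads that fit more than 1 place were left out of the counts, so how reads divide between the pair is less certain than for the other members. An exon of apolpp overlaps 96 bp of the gene Zyx on the other strand, which the strand-specific counts keep apart. The lowest count of any member in any library was 681, for Mtp at SD3, and the highest was 683856, for apolpp in an input library.

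apolpp was among the genes with the most counts in these head libraries. It took between 0.30% and 1.76% of all gene counts of a library and ranked between 5th and 18th of all genes by CPM. Levels of different genes are compared per kilobase of exon, since a long gene collects more reads. On that scale apolpp stood at between 252 and 1437 CPM per kb and ranked between 27th and 239th of all genes. It was the highest member in 16 of 16 libraries, between 9.69 and 21.3 times above Apoltp. Mtp, the lipid-loading protein, had between 7.52 and 29.1 CPM per kb. The receptors lay in a narrow band, with LpR2 at between 31.6 and 50.7 CPM per kb and LpR1 at between 17.8 and 32.9, and LpR2 was above LpR1 in 16 of 16 libraries.

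**Figure D1:**
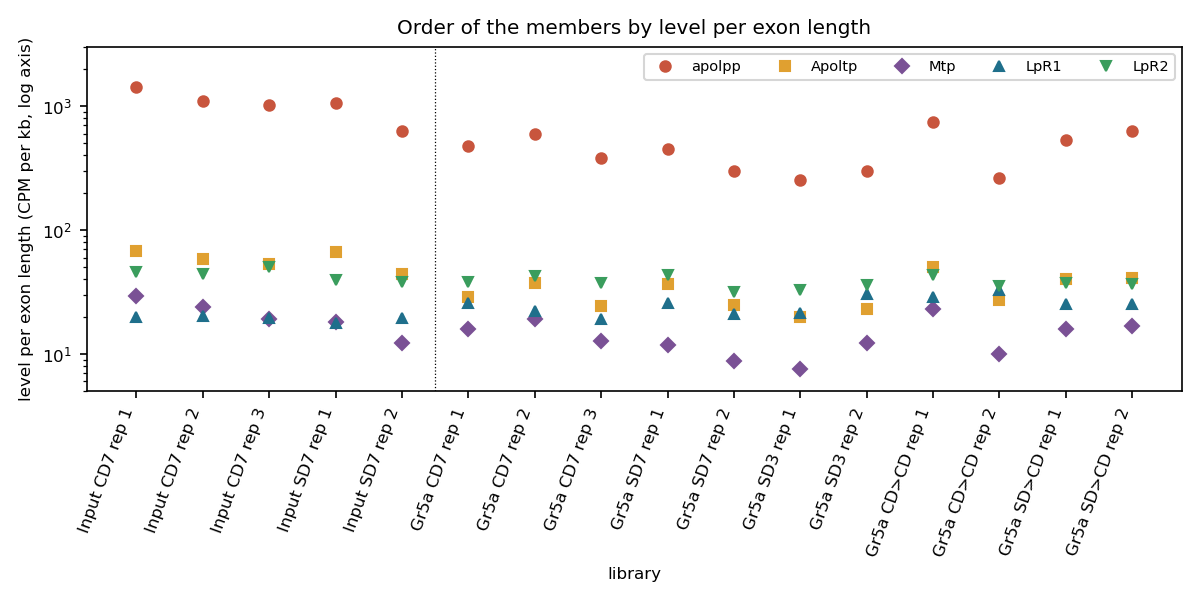
The level of each gene per kilobase of exon (CPM per kb, log axis) in each of the 16 libraries, with inputs to the left of the dotted line. apolpp is highest in every library, Apoltp lies above LpR2 in 5 of 5 inputs, and LpR2 lies above Apoltp in 8 of 11 Gr5a libraries.

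The order below apolpp differed between fractions. In whole heads Apoltp came second in 5 of 5 inputs, ahead of LpR2. In the day-7 Gr5a libraries LpR2 came second in 5 of 5, ahead of Apoltp, and over all Gr5a libraries it did so in 8 of 11. The exceptions were CD>CD replicate 1 and both SD>CD libraries. LpR1 and Mtp were the lowest members in the inputs, and neither was reliably above the other there, with Mtp ahead in 3 of 5. In the Gr5a fraction LpR1 was above Mtp in 11 of 11 libraries.

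**Figure D2:**
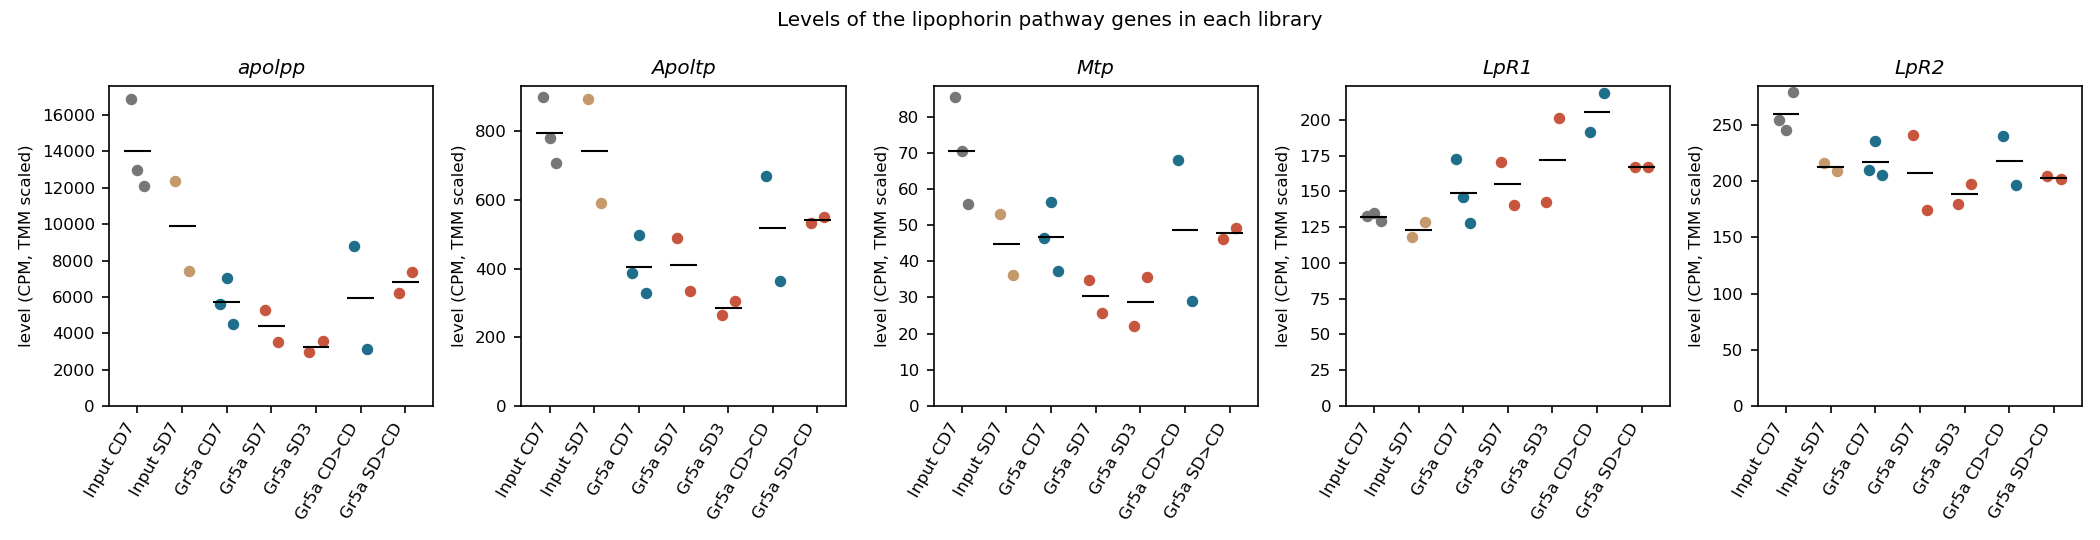
The level of each gene in CPM (linear axes from 0) in each library of the 7 groups; points are libraries and bars are group means. apolpp and Apoltp are lower in the day-7 pull-downs than in the inputs of the same diet, without overlap, and the receptors LpR1 and LpR2 stay within a narrow range.

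The first question was whether mRNAs of lipoprotein assembly and uptake were enriched or depleted by the pull-down from whole heads. On the control diet apolpp, Apoltp and Mtp were lower in the pull-down than in whole heads, and the receptors did not pass the test in either direction. apolpp had 16905, 12967 and 12125 CPM in the input replicates and 5604, 7013 and 4513 CPM in the Gr5a replicates. The groups do not overlap. The log2 fold change was -1.29 (edgeR adjusted p 0.00456, SE 0.26), which is 2.44 times lower. In a bulk sample fewer cells of a type and less RNA per cell cannot be told apart, and that holds for every value here. The pull-down holds ribosome-bound RNA and the input RNA of the whole lysate. Between fractions, ribosome association and carry-over on the beads cannot be told apart from these either.

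Apoltp, the protein of the transfer particle, had 900, 780 and 709 CPM in the input and 387, 498 and 328 CPM in the Gr5a fraction. These groups do not overlap either, at -0.97 on the log2 scale (SE 0.21, edgeR adjusted p 0.00647). Mtp had 85.3, 70.5 and 55.7 CPM in the input and 46.5, 56.3 and 37.4 CPM in the Gr5a fraction, so the lowest input library lay just under the highest Gr5a library. Its log2 fold change was -0.59 (SE 0.22, edgeR adjusted p 0.0562). That call was lost when Gr5a CD7 replicate 1 or 3 or input CD7 replicate 1 or 2 was left out of the edgeR fit, with log2 fold changes of -0.58, -0.45, -0.43 and -0.59 and adjusted p of up to 0.181.

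LpR1, a receptor, had 133, 135 and 129 CPM in the input and 173, 146 and 128 CPM in the Gr5a fraction. The groups overlap, and the log2 fold change of 0.18 had a 95% interval from -0.10 to 0.45 (edgeR adjusted p 0.288). LpR2 had 255, 245 and 279 CPM in the input and 210, 236 and 206 CPM in the Gr5a fraction. Every Gr5a value was below every input value, but the log2 fold change of -0.25 (95% interval -0.53 to 0.03) did not pass (edgeR adjusted p 0.145). It passed when only these 6 libraries were fitted (edgeR adjusted p 0.0563), when Gr5a CD7 replicate 2 was left out (0.0997) and when at least 10 counts were asked of every library (0.0921).

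Called genes were common in this comparison, which sets the scale for these counts. The edgeR test called 46.2% of 14185 tested genes in either direction and 22% as lower, against 3 of 5 members lower. In 27.4% of tested genes the Gr5a libraries all lay below the inputs, as they did for apolpp, Apoltp and LpR2. The median log2 fold change was -0.59 over the 5 members and 0.02 over all genes tested.

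On the sugar diet the 2 carriers were again lower in the Gr5a fraction. apolpp had 12370 and 7404 CPM in the input and 5272 and 3499 CPM in the Gr5a fraction, a log2 fold change of -1.19 (edgeR adjusted p 0.0361, SE 0.32). Apoltp had 894 and 590 CPM against 490 and 334 CPM, at -0.87 on the log2 scale (edgeR adjusted p 0.0541, SE 0.26). No Gr5a library reached an input library for either gene. Mtp had 53.2 and 36.2 CPM in the input and 34.9 and 25.7 CPM in the Gr5a fraction, and its log2 fold change of -0.58 (95% interval -1.17 to 0.01) did not pass (edgeR adjusted p 0.194). With same-numbered libraries treated as pairs it did (-0.58, edgeR adjusted p 0.0554), although the same-numbered SD7 libraries did not deviate together (correlation -0.272), and with the SD7 numbers crossed, chosen after seeing the data, it did too (0.0934).

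The receptors went in no common direction at SD7. LpR1 had 118 and 129 CPM in the input and 171 and 140 CPM in the Gr5a fraction, and its log2 fold change of 0.31 (95% interval -0.03 to 0.64) did not pass (edgeR adjusted p 0.225). LpR2 had 216 and 209 CPM in the input and 241 and 174 CPM in the Gr5a fraction, with the input values between those of the pull-down. Its log2 fold change was -0.06 (95% interval -0.41 to 0.29, edgeR adjusted p 0.865). In this comparison 18.7% of genes were called in either direction, 7.95% were called lower and 20.5% were lower without overlap. The calls for apolpp and Apoltp were lost when Gr5a SD7 replicate 2 (adjusted p 0.183 and 0.249) or input SD7 replicate 1 (0.225 and 0.324) was left out. They were also lost in an edgeR fit on these 4 libraries alone (0.118 and 0.130).

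**Figure D3:**
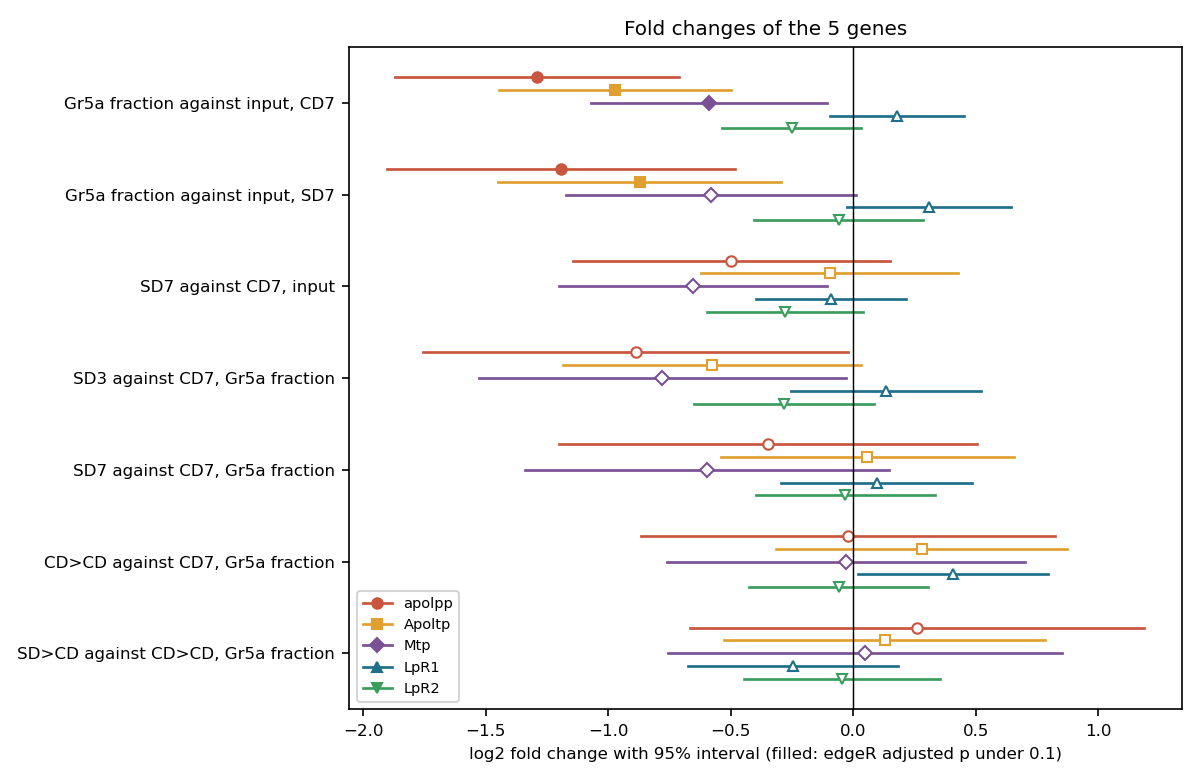
Log2 fold changes of the 5 genes with 95% intervals in 7 comparisons; filled symbols have an edgeR adjusted p under 0.1. Filled symbols appear only for Gr5a fraction against input, where apolpp, Apoltp and Mtp are called at CD7 and apolpp and Apoltp at SD7.

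The difference between fractions was also tested against diet. In the diet by fraction interaction 0 of 5 members and 0 of 14185 genes passed (0%). At an unadjusted p under 0.05 it gave 0 members and 1391 genes, and the DESeq2 Wald test called 0 members and 12 genes. The interaction of apolpp was 0.10 on the log2 scale with a 95% interval from -0.81 to 1.00. The interval holds effects from 0.572 to 2.00 times.

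Marker genes of other tissues, among them the midgut, moved with the fraction as well. Of all genes tested 46.2% were called at CD7 and 18.7% at SD7, in either direction. Of 7 tested fat body genes 3 were lower in the Gr5a fraction at CD7 and none was higher, with a median log2 fold change of -0.53. The list summed to between 1535 and 2667 CPM in the CD7 inputs and to between 1189 and 2158 CPM in the CD7 Gr5a libraries, and most of that sum was Tsf1, a transferrin gene. The list's fat body protein genes Fbp1 and Fbp2 and its larval serum protein gene Lsp1gamma were at or near 0 in every library, at no more than 0.43 CPM. Of 6 hemocyte genes 4 were lower and 1 higher, and all 6 photoreceptor genes were lower. Of 9 glial genes 4 were higher and 2 lower, of 4 oenocyte genes 3 were lower, of 6 neuronal genes 1 was lower, and of 7 midgut genes 6 were higher. At SD7 1 of 7 fat body genes was lower and none higher, with a median log2 fold change of -0.0011, while 2 of 6 hemocyte genes, 4 of 6 neuronal genes and all 6 photoreceptor genes were lower, none of 4 oenocyte genes passed, 5 of 7 midgut genes were higher, and of 9 glial genes 3 were higher and 2 lower. The part of these tissues in the values of the members was not tested.

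A ratio of counts between 2 members of the same library does not depend on how libraries are scaled. The ratio of LpR1 to LpR2 counts was 0.521, 0.550 and 0.462 in the CD7 inputs and 0.545 and 0.615 in the SD7 inputs. In the Gr5a fraction it was 0.824, 0.620 and 0.621 at CD7 and 0.708 and 0.806 at SD7. Every day-7 Gr5a library was above every input library, and the ratio was 1.32 times higher in the Gr5a fraction. An exact permutation test of the fraction labels within each diet gave p = 0.0167 (two-sided, the smallest that 120 arrangements can give here), or 0.0185 adjusted over the 10 ratios between members. Gr5a was above its same-numbered input in 5 of 5 pairs, and the SD7 values leave this so if the SD7 numbers are crossed, but for 5 pairs an exact sign-flip test can go no lower than its value here, p = 0.0625. In the other Gr5a groups the ratio was 0.797 and 1.02 at SD3, 0.798 and 1.11 in CD>CD, and 0.817 and 0.829 in SD>CD. These values lie above every day-7 input, but SD3, CD>CD and SD>CD have no input of their own. They also differ from the day-7 inputs in time on the diet and in the run of library numbers. A difference between fractions was therefore not tested for these groups.

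The same test was run on the carriers. The apolpp count was 0.81 times as large relative to Apoltp in the Gr5a fraction as in the input, and 0.63 times as large relative to Mtp (exact permutation p = 0.0167 for each, 0.0185 adjusted over 10 ratios). This test treats input and pull-down libraries as independent. In the paired form both ratios were lower in 5 of 5 same-numbered pairs, with an exact sign-flip p of 0.0625, which is the smallest that 5 pairs allow and does not pass 0.05. With both diets pooled the ratios to Apoltp overlapped between the fractions, at 12.5 to 18.8 in the input and 10.5 to 14.5 in the pull-down, and those to Mtp did not, at 184 to 233 and 120 to 151. Of the 10 ratios 9 reached the smallest p the design allows, and the remaining one, Mtp to LpR2, had an exact permutation p of 0.05. The 10 ratios share 5 genes and are not independent of each other. How many pairs of all genes reach the smallest p or separate without overlap between fractions was not computed. The count of 9 is therefore not shown to be particular to these members.

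**Figure D4:**
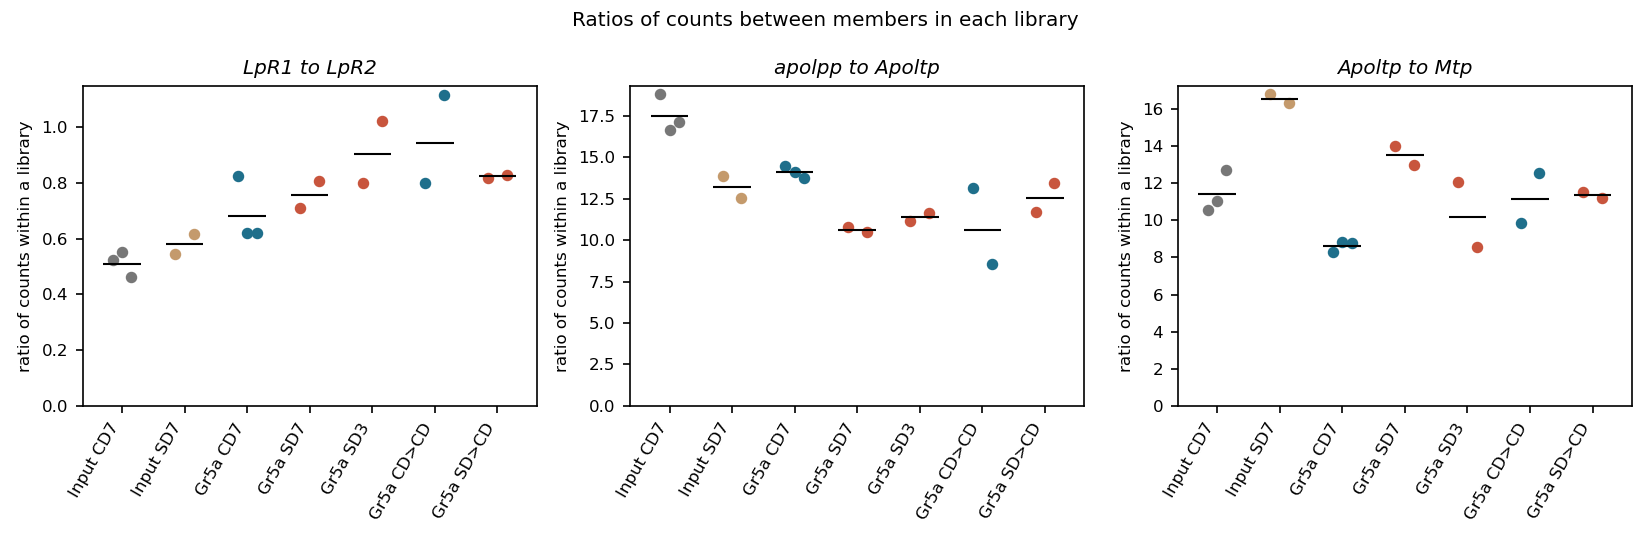
Ratios of counts between members within each library (linear axes from 0), for LpR1 to LpR2, apolpp to Apoltp and Apoltp to Mtp; points are libraries and bars are geometric means. LpR1 to LpR2 is higher in every day-7 Gr5a library than in any input. apolpp to Apoltp is lower at SD7 than at CD7 in both fractions, and Apoltp to Mtp is higher.

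The study's main question concerned the sugar diet. With all libraries in the fit, none of the 5 members passed the test in any comparison of diets. In the input, where 0.0705% of genes (10 of 14185) were called, Mtp came nearest. It had 85.3, 70.5 and 55.7 CPM at CD7 and 53.2 and 36.2 CPM at SD7, without overlap, a log2 fold change of -0.65 (95% interval -1.20 to -0.11, unadjusted p under 0.05, edgeR adjusted p 0.224). apolpp had a log2 fold change of -0.50 (95% interval -1.15 to 0.15) and Apoltp one of -0.10 (-0.62 to 0.43). LpR2 had 255, 245 and 279 CPM at CD7 and 216 and 209 CPM at SD7, also without overlap, at -0.28 (95% interval -0.60 to 0.04, edgeR adjusted p 0.307). LpR1 stood at -0.09 (-0.40 to 0.21), with 118 and 129 CPM at SD7 just below the lowest CD7 input. How many of all genes lay without overlap between the diets was not computed, so these separations are descriptions. Fat body marker genes summed to between 472 and 744 CPM in the SD7 inputs and to between 1535 and 2667 CPM at CD7, of which Tsf1 and Lsp2 made up most, while AkhR had 92.6 and 68.4 CPM at SD7 against 75.6, 69.8 and 74.7 CPM at CD7. Of 7 tested fat body genes 1 was lower. Midgut genes summed to between 104 and 305 CPM at SD7 and to between 581 and 860 CPM at CD7, with 0 of 7 passing the edgeR test and a median log2 fold change of -1.49. The part of these tissues in the values was not tested. The edgeR test gave 1 member and 2662 genes at an unadjusted p under 0.05, and the DESeq2 Wald test called 0 of 5 members and 870 genes.

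In the Gr5a fraction at SD3, 0.0436% of genes were called (6 of 13758), and 478 by the DESeq2 Wald test, with 0 members by either. apolpp had 2964 and 3555 CPM at SD3, below the 4513 CPM of the lowest CD7 library, a log2 fold change of -0.89 (95% interval -1.76 to -0.02, edgeR adjusted p 0.336). Mtp had 22.0 and 35.7 CPM, also below the 37.4 CPM of the lowest CD7 library, at -0.78 (95% interval -1.53 to -0.03, edgeR adjusted p 0.329). These 2 members had an unadjusted p under 0.05 in edgeR, as had 2011 genes. Apoltp had 266 and 306 CPM against at least 328 CPM at CD7, and LpR2 179 and 197 CPM against at least 206 CPM. LpR1 overlapped, with 143 and 201 CPM. The share of all genes that lay wholly below CD7 was not computed, so these separations only describe the members.

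At SD7 the edgeR test called 0% of genes in the Gr5a fraction (0 of 13758, with 772 at an unadjusted p under 0.05) and 0 members (0 at an unadjusted p under 0.05), and the DESeq2 Wald test called 57 genes and 0 members. Log2 fold changes ran from -0.60 for Mtp (95% interval -1.34 to 0.15) to 0.09 for LpR1 (-0.29 to 0.48). apolpp stood at -0.35 (-1.20 to 0.50), Apoltp at 0.06 (-0.54 to 0.65) and LpR2 at -0.03 (-0.40 to 0.33). As folds the intervals run from 0.760 to 1.40 over both receptors and from 0.435 to 1.42 for apolpp. The neighbouring levels of Gr5a CD7 and SD7 overlapped for all members except Mtp, whose 34.9 and 25.7 CPM at SD7 lay below CD7. The share of all genes without overlap was not computed here either.

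Ratios between members within libraries were also compared between diets, and none passed a test. Apoltp had 10.6, 11.1 and 12.7 counts for each Mtp count in the CD7 inputs and 16.8 and 16.3 in the SD7 inputs. In the Gr5a fraction the same ratio was 8.32, 8.84 and 8.77 at CD7 and 14.0 and 13.0 at SD7. The SD7 values are 1.45 and 1.56 times higher in the input and the Gr5a fraction, with no overlap in either. apolpp per Apoltp count went the other way. It was 18.8, 16.6 and 17.1 in the CD7 inputs and 13.8 and 12.5 in the SD7 inputs, and 14.5, 14.1 and 13.8 against 10.8 and 10.5 in the Gr5a fraction. Both fractions gave 0.75 times the CD7 value.

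With 3 libraries against 2 the smallest exact permutation p is 0.1, two-sided, and both ratios reached it in both fractions (0.333 adjusted over 20 ratio and fraction combinations), so no such design can pass 0.05. These were the 2 of 10 ratios without overlap between diets in both fractions, and they were picked after the values were seen. The share over pairs of all genes was not computed. Input and pull-down were taken from the same lysates, so the fractions are not independent repeats. At SD3 the ratio of apolpp to Apoltp was 11.1 and 11.6, below CD7, and the ratio of Apoltp to Mtp was 12.1 and 8.58, of which the second lies within CD7. For apolpp to Apoltp the CD>CD libraries had 13.1 and 8.56, the second (replicate 2) below every SD7 value, and the SD>CD libraries had 11.7 and 13.4. For Apoltp to Mtp CD>CD had 9.85 and 12.6, on either side of the 11.5 and 11.2 of SD>CD. The 14-day groups overlapped on both ratios.

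For the carriers and Mtp the 2 CD>CD libraries lay on either side of both SD>CD libraries. apolpp had 8802 and 3124 CPM in CD>CD replicates 1 and 2, a 2.82-fold difference, and 6218 and 7387 CPM in SD>CD, which lie between them. Apoltp had 670 and 365 CPM in CD>CD and 533 and 550 CPM in SD>CD, and Mtp 68.0 and 29.1 CPM and 46.3 and 49.2 CPM. In SD>CD against CD>CD 13.3% of genes were called (1828, and 1170 without CD>CD replicate 2) and 0 of 5 members, also with the DESeq2 Wald test and at an unadjusted p under 0.05. The log2 fold change of apolpp was 0.26 (95% interval -0.66 to 1.19). Without CD>CD replicate 1 it was 1.11 (edgeR adjusted p 0.0424), and without CD>CD replicate 2, the library low in Lsp2, it was -0.28 (edgeR adjusted p 0.81). In these fits the lone CD>CD library is assumed to vary like the other groups.

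LpR1 was the one member whose 14-day groups did not overlap, with 192 and 219 CPM in CD>CD and 167 CPM in each SD>CD library. It did not pass (log2 fold change -0.25, 95% interval -0.67 to 0.18, edgeR adjusted p 0.678, and -0.10 without CD>CD replicate 2). The share of all genes without overlap was not computed for this comparison or for the next, so LpR1 is not shown to be unusual. CD>CD against CD7, groups that differ in age and in time on the diet, called 14.1% of genes and 0 of 5 members, with 0 by the DESeq2 Wald test. The 1942 genes called became 3388 without CD>CD replicate 2 and 166 without CD>CD replicate 1. LpR1 was higher in both CD>CD libraries than the 173 CPM of the highest CD7 library, at 0.41 (95% interval 0.02 to 0.79, unadjusted p under 0.05, edgeR adjusted p 0.171), and at 0.26 without CD>CD replicate 2 (edgeR adjusted p 0.413). It was the only member with an unadjusted p under 0.05 in edgeR, as had 3677 of 13758 genes. apolpp stood at -0.02 (-0.87 to 0.82), at -0.90 without CD>CD replicate 1 and at 0.52 without CD>CD replicate 2. Between these 14-day and 7-day contrasts, the SD>CD effect against the SD7 effect called 12.3% of genes (1696, and 1197 without CD>CD replicate 2) and 0 members, with 0 members at an unadjusted p under 0.05 or by the DESeq2 Wald test. Without CD>CD replicate 2 the value of apolpp was 0.07. Without CD>CD replicate 1, apolpp (1.49, edgeR adjusted p 0.0295) and Mtp (1.33, edgeR adjusted p 0.0613) passed it.

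Across the 16 libraries the carriers varied together. The log2 levels of apolpp correlated with those of Apoltp at a Pearson r of 0.961 and with those of Mtp at 0.904, and within the 11 Gr5a libraries alone at 0.916 and 0.941. LpR2 followed apolpp at 0.796, while LpR1 did not (-0.494 over all libraries, 0.032 within the Gr5a fraction). The points share fractions, lysates and depth, and these values are descriptions. How many of all genes correlate as closely was not computed, so the values are not shown to be particular to these members. CG16756 was closer to apolpp than Apoltp was, at 0.994. Levels of apolpp spanned 5.70 times from the lowest to the highest library, those of Apoltp 3.39 times and those of Mtp 3.87 times, but those of LpR1 only 1.85 times and those of LpR2 1.61 times.

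The genes most like each member, by the same correlation over 16 libraries among 8862 genes, were as follows. For apolpp they were CG16756 (0.994), CG5493 (0.983) and Nepl18, a gene named as neprilysin-like (0.983), and CG16756 had 23.5 CPM on average in the CD7 inputs and 9.08 CPM in the CD7 Gr5a libraries. For Apoltp they were Nepl6 (0.982), CG14629 (0.980) and Tmlh (0.978), and for Mtp Adk2 (0.970), Nepl21 (0.970) and CG4408 (0.956). LpR1 was closest to drpr, the engulfment receptor of glia and other phagocytes (0.871), to alpha-Man-IIa (0.870) and to CG31793 (0.862). LpR2 was closest to cDIP (0.929), CG18249 (0.896) and Cyp309a2 (0.884).

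The other genes of lipid transport were examined by list, in the same fits. Of the LDL receptor family and the chaperone boca, 6 of 7 genes were tested, and at CD7 2 were higher in the Gr5a fraction and 1 was lower. Over all genes tested 46.2% were called in that comparison in either direction, and 22% were called lower. mgl, which encodes a large endocytic receptor like mammalian megalin, had 1399 ± 213 CPM in the pull-down against 758 ± 20.9 CPM in whole heads (mean ± SD of n = 3; log2 fold change 0.89, edgeR adjusted p 0.00111). arr, the Wnt co-receptor, was 0.44 higher and Lrp4 0.27 lower on the log2 scale (edgeR adjusted p 0.0222 and 0.0885). These 3 were named after their values were seen.

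Among other extracellular lipid carriers 3 of 11 tested genes were higher and 3 lower at CD7, where 46.2% of all genes were called. NLaz, a secreted lipocalin related to mammalian apolipoprotein D, had 154, 57.9 and 168 CPM in the CD7 pull-downs and 23.8, 19.5 and 25.5 CPM in their inputs. It was higher in the Gr5a fraction by 2.47 on the log2 scale (SE 0.34, edgeR adjusted p 0.000677), the opposite direction to apolpp. The lipocalin gene Karl (-1.39) and the Npc2-family genes Npc2g (-1.44) and Npc2h (-1.36), whose family binds sterols and other lipids, were lower by amounts like that of apolpp (edgeR adjusted p 0.00168 or lower). All 4 kept their direction and passed at SD7 as well, but Npc2g and Npc2h no longer passed there when Gr5a SD7 replicate 2 or input SD7 replicate 1 was left out or only these 4 libraries were fitted (called in 11 of 14 alternatives each).

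Lipid uptake proteins and sterol transporters had 4 of 11 tested genes higher and 1 lower at CD7, where 46.2% of all genes were called. emp, a CD36-family scavenger receptor, had 967 ± 164 CPM in the pull-down against 330 ± 15.1 CPM in whole heads (mean ± SD of n = 3; log2 fold change 1.56, edgeR adjusted p 8.02e-05), and Fatp3, a fatty acid transport protein, was 0.96 higher (edgeR adjusted p 0.00334). Of 16 tested genes for neutral lipid synthesis, storage and lipases 4 were higher and 5 lower. Hsl, the hormone-sensitive lipase, was 1.07 higher (edgeR adjusted p 5.86e-05) and Lsd-1, a perilipin of the lipid droplet, was 1.12 lower, with a log2 fold change of -1.12 (edgeR adjusted p 0.000872). Both also passed at SD7 in the same direction, Lsd-1 in 12 of 14 alternatives, without Gr5a SD7 replicate 2 or input SD7 replicate 1 not. For processing and export 2 of 4 tested genes were higher at CD7 and none lower.

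Of the 48 tested genes of these lists 0 passed the edgeR test for SD7 or SD3 against CD7 in either fraction, or in the interaction. At an unadjusted p under 0.05 there were 11 in the input at SD7, 11 in the Gr5a fraction at SD3, 3 in the Gr5a fraction at SD7 and 0 in the interaction, and the DESeq2 Wald test called 7, 5, 0 and 0. Over all genes the unadjusted counts were 2662 of 14185, 2011 and 772 of 13758, and 1391 of 14185, in the same order. In SD>CD against CD>CD 4 of the 48 were lower and none higher. Of all 13758 genes tested there, 1799 were lower and 29 higher, so the lists are not shown to be unusual. NLaz had 35.6 and 263 CPM in CD>CD and 30.2 and 26.6 CPM in SD>CD, so its log2 fold change of -2.38 (edgeR adjusted p 0.0842) rests on CD>CD replicate 2, without which it was -0.23 (edgeR adjusted p 0.908). Npc1b, the gut sterol transporter, had 19.3 and 6.12 CPM in CD>CD and 0.213 and 0.605 CPM in SD>CD (log2 fold change -4.87, edgeR adjusted p 0.0156, and -5.46 without CD>CD replicate 2). Npc2f, at 3.91 CPM in CD>CD and 0.535 CPM in SD>CD on average (edgeR adjusted p 0.027, and 0.113 without CD>CD replicate 2), and the lipase gene mag also passed. The counts of mag were 192 and 135 in CD>CD and 0 in both SD>CD libraries, at least 54.7-fold lower against a floor of 3 counts per library (edgeR adjusted p 0.00278, and 0.00422 without CD>CD replicate 2). Npc2f and mag fall outside the naming rule and are given because the count is small. Npc1b, Npc2f and mag were lower in SD>CD, as were 6 of 7 tested midgut markers. From CD>CD replicate 1 to 2 the midgut sum rose from 863 to 2029 CPM, while Npc1b and mag fell and Npc2f did not. The relation of these genes to the midgut markers was not tested.

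In CD>CD against CD7 the lists gave 3 higher and 8 lower genes of 48 tested, where 14.1% of all genes were called. In the SD>CD effect against the SD7 effect, given last, that share was 12.3%. Lrp4 rose from 179 ± 22.1 CPM (n = 3) to 320 ± 29.3 CPM (SD, n = 2; log2 fold change 0.77, edgeR adjusted p 0.0179), Npc2a, a sterol-binding protein gene, rose by 0.50 and arr by 0.47 on the log2 scale. emp fell from 967 ± 164 to 532 ± 65.4 CPM (log2 fold change -0.92, edgeR adjusted p 0.0211), Fatp2 fell by 0.84, ninaD, a carotenoid uptake receptor, by 1.98 and mag by 2.29. Without CD>CD replicate 2, 10 of these 11 genes passed, all but mag, and without CD>CD replicate 1 only ninaD did. In the comparison of the SD>CD effect with the SD7 effect, Fatp2 (0.98, edgeR adjusted p 0.0851, and 0.246 without CD>CD replicate 2) and mag (edgeR adjusted p 0.00986, and 0.0132 without it) were the only genes of the lists to pass.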

How the data were processed

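Heads of male flies were profiled by ribosome pull-down and total RNA sequencing in 16 libraries of 7 groups, with 2 or 3 biological replicates each. The authors aligned reads with STAR to the BDGP6 (dm6) genome and deposited whole-number read counts per gene, of which the same-strand column was used (96.5% of stranded counts in 15 libraries). One library, Gr5a CD7 replicate 1, was deposited with a single count column, which lay nearer to the same-strand than to the unstranded column of its replicates. HTSeq, SAMtools 1.4 and DESeq2 1.18.0 are also named in the submitters' processing notes. Reads without a gene were left out of library sizes: multimapping reads made up 11.6 to 26% and reads with no feature 4.2 to 14.1% in the 13 libraries that list them.

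Counts were tested with edgeR 4.0.16 (quasi-likelihood F test, filterByExpr, TMM, prior count 0.125) in R 4.3.3, with Benjamini-Hochberg adjustment over all genes tested and a threshold of 0.1, as the study used. The 10 day-7 libraries formed 1 fit (14185 genes) and the 11 Gr5a libraries another (13758 genes), and all 5 members passed the filter in both. DESeq2 1.42.0 was an alternative. Standard errors and intervals were derived from the F statistic and its degrees of freedom. Comparisons that share the CD7 libraries are not independent.

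The members and gene lists were chosen with earlier results of these data known, and the ratio tests were added after the levels were seen. From the lists, up to 4 called genes in each direction with a mean of at least 5 CPM were named. For likeness, the 3 genes with the highest Pearson correlation of log2(CPM + 0.5) were named per member. Of 106 list symbols 5 (Fatp1, FASN1, FASN3, Pdi and Tango1) matched no row and were not analysed here. AkhR is in both a pathway list and the fat body list. Same-numbered CD7 input and Gr5a libraries deviated together from their group means (correlations 0.349, 0.234 and 0.283), same-numbered SD7 libraries did not (-0.272, and 0.272 with the numbers crossed), and the replicate number was tried as a block. Input and pull-down come from 1 lysate by the protocol. Coordinates and exon lengths are from the Ensembl annotation of the same build. Scripts were tested on simulated data. Read counts are not independent molecules, so their precision covers counting error only.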

Additional observations from a re-analysis of the deposited data

How the results depend on the processing

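Of the values of the members under the alternatives tried, 589 kept their direction and side of the threshold, 8 newly passed, 11 no longer passed and 52 changed sign, all of these last for values that did not pass. The number of members called at CD7 between fractions was within 1.5 times of 3 throughout. At SD7 it was 0 with only the 4 libraries compared, and between 0 and 2 with each library left out. For SD>CD against CD>CD it lay between 0 and 1 with a library left out, and for the SD>CD effect against the SD7 effect between 0 and 2. With the replicate block, 3 members were called at SD7, Mtp among them, and the block changed no other call of a member. With it the log2 fold changes of Apoltp and LpR1 at SD7 in the Gr5a fraction were -0.13 and -0.033. Over all genes the block called 156 for SD7 against CD7 in the input, 3 in the Gr5a fraction and 0 for CD>CD against CD7. With the SD7 numbers crossed, chosen after seeing the data, 3931 genes and 3 members were called between fractions at SD7.

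Other sign changes were small. Unstranded counts, without Gr5a CD7 replicate 1, gave -0.008402 for Apoltp at SD7 in the Gr5a fraction and 0.055 for LpR2 in the SD>CD effect against the SD7 effect. No filter gave -0.032 for Mtp in SD>CD against CD>CD and 0.0038 for apolpp in CD>CD against CD7. With only the groups compared, CD>CD against CD7 gave 0.066 for apolpp, 0.054 for Mtp and 0.0103 for LpR2. The cause was not tested.

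Leaving out each library in turn gave these ranges of log2 fold change where a sign changed. Between fractions at SD7 they were -0.33 to 0.17 for LpR2. In the interaction they were -0.25 to 0.54 for apolpp, -0.22 to 0.46 for Apoltp, -0.25 to 0.34 for Mtp, -0.035 to 0.28 for LpR1 and -0.082 to 0.42 for LpR2. At SD7 in the input they were -0.43 to 0.16 for Apoltp. At SD3 they were -0.040 to 0.33 for LpR1. At SD7 in the Gr5a fraction they were -0.29 to 0.35 for Apoltp, -0.10 to 0.28 for LpR1 and -0.33 to 0.23 for LpR2. In SD>CD against CD>CD they were -0.28 to 1.11 for apolpp, -0.21 to 0.56 for Apoltp, -0.42 to 0.70 for Mtp and -0.15 to 0.038 for LpR2. In CD>CD against CD7 they were -0.90 to 0.52 for apolpp, -0.17 to 0.62 for Apoltp, -0.71 to 0.43 for Mtp and -0.17 to 0.041 for LpR2. In the SD>CD effect against the SD7 effect they were -0.27 to 0.53 for Apoltp and -0.28 to 0.28 for LpR2.

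Over all alternatives the number of genes called ran from 4782 to 6942 (fractions, CD7), 1230 to 3931 (fractions, SD7), 0 to 12 (interaction), 1 to 1391 (SD7, input), 0 to 478 (SD3), 0 to 57 (SD7, Gr5a fraction), 146 to 2253 (SD>CD against CD>CD), 0 to 3388 (CD>CD against CD7) and 65 to 2194 (SD>CD effect against SD7 effect). Of the values of the ratios 102 kept their side of the threshold, and the 8 that did not are of Mtp to LpR2. The 2 or 3 libraries per group limit the precision.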
